A study of Mus musculus with 2 samples.

Results

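Interferon-high cells were 770 of 14292 cells from mouse AE9a acute myeloid leukemia, defined by the RNA of 5 interferon-stimulated genes (ISGs). They were the cell barcodes in which the summed UMIs (unique molecular identifiers, each standing for 1 captured mRNA molecule) of Isg15, Ifit1, Irf7, Oasl2 and Usp18 made up at least 5 of every 10000 UMIs of the cell. Only barcodes with at least 500 detected genes and at most 10% mitochondrial UMIs were considered. The choice thus rests on measured values of those 5 genes, and everything that follows on other genes describes the cells so chosen, without a test.

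AE9a is a truncated form of the AML1-ETO fusion protein that drives myeloid leukemia in mice. The leukemia cells carried GFP, 1 floxed and 1 normal Usp18 allele (Usp18+/f) and a Cre recombinase that tamoxifen switches on. In both groups the cells had been transplanted and the recipients had become sick before treatment, after which they received either oil, labelled Usp18+/f, or tamoxifen, labelled Usp18+/Δ for the deletion of 1 allele. GFP+ Lin- c-Kit+ splenocytes were sorted 3 days after the first injection, and the cells of 3 mice were pooled per group with 8000 cells targeted. The control therefore also carried the Cre and the floxed allele but no tamoxifen, so that tamoxifen and deletion cannot be told apart, and the number of leukemia clones in a pool is not given in the sources used here.

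Each group was 1 library, so there was no replicate check: no test was run, intervals are 95% counting intervals, and a gene is called higher or lower at 1.5-fold without any statement on mice. The deposited libraries held 7281 and 7833 barcodes, of which 6886 and 7406 were kept for Usp18+/f and Usp18+/Δ. No member barcode was a member in both libraries, although 13 kept barcodes were shared. Levels are CPM (a gene's UMIs for each 1000000 of a class of cells), and ratios are the log2 of members over the other cells of the same library.

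Type I interferon binds its receptor on the cell surface and activates the kinases Jak1 and Tyk2. These act on ISGF3, a transcription factor that contains Stat2 and Irf9 and binds interferon-stimulated response elements (ISREs) in the promoters of ISGs. USP18 is itself encoded by an ISG, shuts off signaling at the receptor, and removes the ubiquitin-like protein ISG15 from other proteins. Interferon is also known to act on blood progenitors, where it can slow or speed their division.

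Usp18 is both the deleted gene and a rule gene, and its RNA is given first. It had 45 UMIs in members and 309 in other cells of the library labelled Usp18+/f, or 129 CPM (93.9 to 172) against 4.96 CPM (4.42 to 5.55). In the Usp18+/Δ-labelled library it had 537 and 983 UMIs, or 106 CPM (96.9 to 115) against 16.7 CPM (15.7 to 17.8). In other cells Usp18 was thus higher where 1 allele is stated to be deleted, by a log2 ratio of 1.75 (1.57 to 1.94), while in members the ratio between the libraries was -0.28 (-0.73 to 0.19). Both classes were cut on a score that includes Usp18, and counts of 3′ ends do not tell a deleted from an intact allele. These values therefore cannot decide whether the label is right, and Usp18+/Δ below names only the library so labelled. Usp18 is itself an ISG, and antiviral genes outside the rule were also higher in the other cells of that library, with a median log2 ratio of 0.82 over Usp18+/f.

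Interferon-high cells made up 52 of 6886 cells (0.755%, exact 95% interval 0.564 to 0.989) in Usp18+/f. In Usp18+/Δ they were 718 of 7406 (9.69%, 9.03 to 10.4). The share was 12.8 times as high in the latter, a log2 ratio of 3.68 (3.28 to 4.09). Because the rule fixes the same cutoff in both, this difference is a description of the 5 rule genes. The cutoff does not sit in a gap: the members just inside it scored 5.01 and 5.0 UMIs per 10000, and the cells just outside scored 4.97 and 5.0. Between 5 and 6 there were 13 and 149 members, and between 4 and 5 there were 19 and 213 other cells. The members' median score was 7.62 in Usp18+/f and 8.63 in the Usp18+/Δ-labelled library, with maxima of 49.6 and 225. Among the other cells 80.0% and 54.0% had no UMI of any rule gene.

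**Figure D1:**
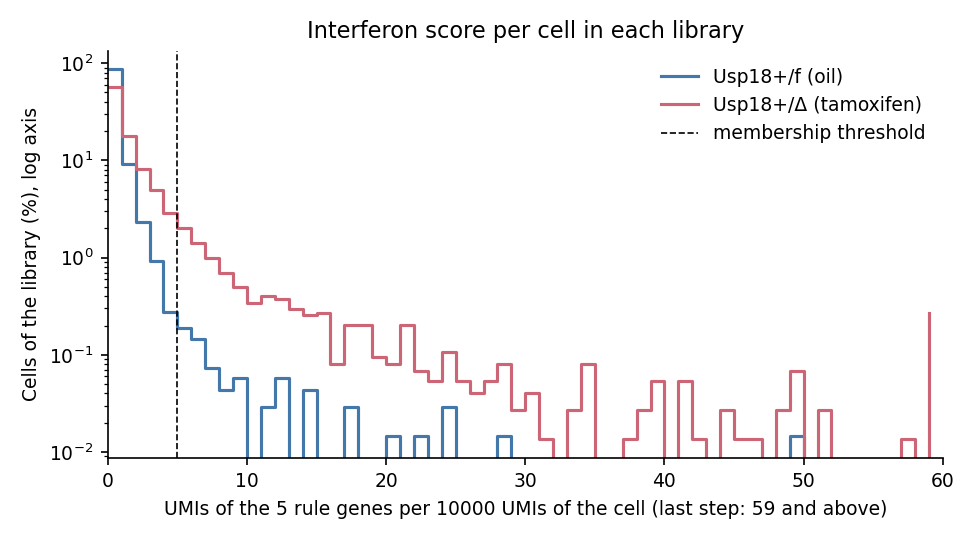
Percent of each library's cells (log axis) by interferon score, the UMIs of the 5 rule genes per 10000 UMIs of the cell, with the last step holding all cells at 59 and above; the dashed line is the membership threshold of 5. The curves fall without a gap at the threshold, and 9.69% of cells lie beyond it in Usp18+/Δ against 0.755% in Usp18+/f.

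Interferon-high cells were shallower than other cells, with median totals of 6188 and 6579 UMIs against 8694 and 8355, and near-equal median mitochondrial percentages of 6.35 and 6.23 against 6.31 and 6.46. Of the members, 8 in Usp18+/f and 16 of the Usp18+/Δ-labelled library qualified on 1 rule-gene UMI, and 37 and 648 had at least 3. For that reason several ratios are also given against other cells weighted to the members' spread of total UMIs, called depth-matched below.

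Isg15, the ubiquitin-like modifier, carried most of the score, with 240 of 406 rule-gene UMIs in members of Usp18+/f and 4580 of 7175 in those of the Usp18+/Δ-labelled library (63.8%). It was at 901 CPM (875 to 927) in Usp18+/Δ members against 44.6 CPM (42.9 to 46.3) in the other cells, and at 686 against 17.1 CPM in Usp18+/f. Ifit1, which binds foreign RNA caps, was at 155 against 2.21 CPM in Usp18+/Δ, and at 160 against 0.385 CPM in Usp18+/f. Irf7, the transcription factor that amplifies interferon production, was at 159 against 19.3 CPM in Usp18+/Δ and 152 against 3.90 CPM in Usp18+/f. Oasl2, of the oligoadenylate synthetase family, was at 90.7 against 5.45 CPM and at 34.3 against 0.883 CPM. These values chose the cells and are shown only to describe them. More than 1 rule gene was detected in 38 members of Usp18+/f (73.1%) and in 620 of the Usp18+/Δ-labelled library (86.4%).

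The promoters of Isg15, Ifit1, Slfn5, Gbp2 and B2m, all higher in members, were chosen because each holds the letters GAAANNGAAA, or TTTCNNTTTC on the other strand. An ISRE core shares these letters. Isg15 and Ifit1 are rule genes, and B2m was not among the 12 highest ratios given below. The promoters of Irf7, Oasl2, Isg20 and Rnf213, also higher in members, held no match, while that of Bub1b, among the 12 lowest, held 1. Each printed promoter runs from 250 bases before to 50 bases after the start site of the gene, 5′ to 3′ on its own strand, from RefSeq on GRCm38.p6, with matches in capitals. Isg15 lies on the minus strand at chr4:156200769-156201068 and its 3 matches overlap, Ifit1 on the plus strand at chr19:34640639-34640938, Slfn5 on the plus strand at chr11:82951852-82952151, Gbp2 on the plus strand at chr3:142620413-142620712, and B2m on the plus strand at chr2:122147437-122147736.
Isg15: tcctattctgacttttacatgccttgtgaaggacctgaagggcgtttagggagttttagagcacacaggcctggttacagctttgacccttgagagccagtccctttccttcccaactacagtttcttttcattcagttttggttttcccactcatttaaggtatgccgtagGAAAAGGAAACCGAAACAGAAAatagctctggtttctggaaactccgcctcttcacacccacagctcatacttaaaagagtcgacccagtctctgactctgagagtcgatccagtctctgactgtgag
Ifit1: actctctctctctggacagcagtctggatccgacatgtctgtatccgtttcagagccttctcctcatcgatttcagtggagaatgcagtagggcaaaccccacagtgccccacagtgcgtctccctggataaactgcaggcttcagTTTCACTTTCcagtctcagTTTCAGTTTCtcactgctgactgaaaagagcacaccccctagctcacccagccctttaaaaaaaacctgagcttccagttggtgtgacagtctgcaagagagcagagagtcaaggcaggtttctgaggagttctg
Slfn5: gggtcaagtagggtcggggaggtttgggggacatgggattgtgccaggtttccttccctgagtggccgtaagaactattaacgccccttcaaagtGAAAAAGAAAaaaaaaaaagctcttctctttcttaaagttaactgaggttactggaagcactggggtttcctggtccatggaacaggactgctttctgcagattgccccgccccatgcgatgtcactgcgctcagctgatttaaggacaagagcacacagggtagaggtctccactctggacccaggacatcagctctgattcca
Gbp2: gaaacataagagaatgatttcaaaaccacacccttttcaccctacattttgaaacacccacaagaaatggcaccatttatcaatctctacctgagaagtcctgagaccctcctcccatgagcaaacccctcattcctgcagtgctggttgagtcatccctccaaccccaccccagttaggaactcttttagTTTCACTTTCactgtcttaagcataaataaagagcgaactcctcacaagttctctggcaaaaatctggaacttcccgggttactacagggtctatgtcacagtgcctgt
B2m: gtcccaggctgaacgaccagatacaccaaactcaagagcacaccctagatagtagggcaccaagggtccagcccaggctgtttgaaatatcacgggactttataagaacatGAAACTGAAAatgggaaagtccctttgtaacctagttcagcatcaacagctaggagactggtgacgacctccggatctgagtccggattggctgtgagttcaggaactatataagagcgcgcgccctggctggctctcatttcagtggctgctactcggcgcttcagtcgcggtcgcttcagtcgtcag
The first match began 78 bases before the start in Isg15, 104 in Ifit1, 155 in Slfn5, 59 in Gbp2 and 139 in B2m. The motif was present in 1079 of 27025 genes with a promoter in the table (3.99%) and in 272 of the 7091 tested genes with one (3.84%). Among genes at least 1.5-fold higher in members of the Usp18+/Δ-labelled library, 45 of 333 with a promoter held it (13.5%), against 9 of 266 among those at least 1.5-fold lower (3.38%). It was found in 15 of 26 antiviral effector genes (57.7%), in 2 of 4 rule genes (Isg15 and Ifit1), and in 0 of the 5 globin and Alas2 promoters or the 15 mast cell and basophil promoters. A match describes letters, not binding, and these windows are short.

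Over all genes other than the rule genes, the median log2 ratio of members over other cells was -0.03 in the Usp18+/Δ-labelled library and -0.02 in Usp18+/f. Of 8962 genes that averaged 5 CPM or more over members and other cells of Usp18+/Δ, 440 were at least 1.5-fold higher in members (4.91%) and 353 at least 1.5-fold lower (3.94%). In Usp18+/f the corresponding shares of 8845 genes were 12.1% and 14%, with only 349666 UMIs in the 52 members against 5083232 in the 718 members of the other library. Values from Usp18+/f are therefore far less precise.

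Antiviral effectors that the rule did not use were higher in members of both libraries. Of 34 such genes, 21 reached 5 CPM in the Usp18+/Δ-labelled library and 17 of these were at least 1.5-fold higher, with 0 lower (background 4.91% and 3.94%). Their median log2 ratio was 1.55 (1.44 to 1.89), and 1.48 depth-matched. In Usp18+/f 15 of 20 were at least 1.5-fold higher (background 12.1%), with a median of 2.60 (1.66 to 3.35). Over the 13 alternatives given at the end the medians ran from 1.0 to 3.50 in Usp18+/f and from 1.31 to 1.99 in Usp18+/Δ. Mx1, Oas1g and Slfn5 reached 5 CPM in Usp18+/Δ only through the members, and over the 18 genes that other cells also held at 5 CPM the median was 1.45, with 14 higher. In Usp18+/f 4 genes passed that way, and the other 16 had a median of 1.83.

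Slfn5, a Schlafen family gene, had the largest ratio in Usp18+/Δ among genes averaging 20 CPM or more whose intervals lay above 0 in both libraries, at 39.0 CPM in members against 1.79 CPM in other cells of Usp18+/Δ, and it reached that average only through the members. The log2 ratio was 4.45 (4.10 to 4.80), 98 members and 98 other cells held its UMIs, and in Usp18+/f it was 7.88, where 1 cell gave 65.5% of the members' 29 UMIs. Mx1, a GTPase that blocks virus replication, was at 34.4 against 0.272 CPM in Usp18+/Δ, a log2 ratio of 6.98 (6.24 to 7.82), on 175 of its 191 UMIs. Rtp4, a receptor transporter protein induced by interferon, was at 110 against 20.3 CPM (2.44), and Isg20, an exonuclease that degrades viral RNA, at 129 against 24.2 CPM (2.42). Their ratios in Usp18+/f were 4.48 and 3.35.

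Among the oligoadenylate synthetases, which sense double-stranded RNA, Oas3 was at 2.01, Oasl1 at 2.07, Oas2 at 1.71 and Oas1a at 1.40 in Usp18+/Δ, and Oas1g at 1.55, although it passed 5 CPM only through the members. Bst2, or tetherin, which holds budding virus at the surface, was at 524 against 231 CPM (1.18). The ISG-related genes Ifitm2 and Ifi27 did not share this pattern, with log2 ratios of -0.02 (-0.11 to 0.08) and -0.15 (-0.24 to -0.06). Ifit3 was hardly detected, with 8 UMIs in Usp18+/Δ members. Reads of near-identical Oas1, Slfn and Ifi200 family copies may be split by the authors' counting, so single members of these families are uncertain.

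Sensors of foreign nucleic acid were measured next. The RNA helicases Ddx58 (RIG-I), Ifih1 (MDA5) and Dhx58 (LGP2) had log2 ratios of 2.29 (2.13 to 2.44), 2.07 and 2.05 in Usp18+/Δ and 3.92, 3.17 and 3.37 in Usp18+/f, where Dhx58 passed 5 CPM only through the members. Ddx60, a helicase that aids RIG-I, was highest of these genes at 3.71, although it passed 5 CPM only through the members. The adaptor Mavs was at 0.10 (-0.05 to 0.24), and the DNA sensor Mb21d1 (cGAS) at -0.17 (-0.38 to 0.05) in Usp18+/Δ and 0.48 (-0.26 to 1.12) in Usp18+/f. Of 12 sensing genes at 5 CPM in Usp18+/Δ, 8 were at least 1.5-fold higher (background 4.91%) and 0 lower, with a median of 0.83 (0.67 to 1.05). Without Ddx60 and Ifi203, which passed only through the members, 6 of 10 were, with a median of 0.71. Eif2ak2 (PKR), the kinase that stops translation on double-stranded RNA, was at 133 against 76.6 CPM (0.80).

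Along the pathway from receptor to ISGF3, 2 of 10 measured genes stood above 1.5-fold in the Usp18+/Δ-labelled library (background 4.91%) and 4 of 10 in Usp18+/f (background 12.1%). Stat2 was at 49.2 CPM in members against 14.7 CPM in other cells of Usp18+/Δ, a log2 ratio of 1.75 (1.54 to 1.95), and at 45.8 against 10.7 CPM in Usp18+/f (2.10). Irf9, also part of ISGF3, was at 0.48 (0.33 to 0.63) in Usp18+/Δ, and Socs1, a feedback inhibitor, at 0.47 (0.34 to 0.60). The receptor chains Ifnar1 and Ifnar2 were at 0.25 and 0.28, Jak1 and Tyk2 at 0.05 and 0.03, and Irf3, a factor that starts interferon production, was lowest of the 10 at -0.01. Of 11 interferon genes listed (type I, II and III), members of neither library held a single UMI, and 1 Ifng UMI was found in other cells of Usp18+/f.

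Of 4 measured genes for attaching ISG15 to proteins, 2 were at least 1.5-fold higher in Usp18+/Δ (background 4.91%) and 3 in Usp18+/f (background 12.1%). Herc6, the mouse ligase for ISG15, was at 114 against 32.7 CPM in Usp18+/Δ (1.81, 1.67 to 1.94), and Ube2l6, its conjugating enzyme, at 108 against 38 CPM (1.51, 1.37 to 1.64). Uba7, the activating enzyme, was at 0.42 (0.28 to 0.57). Among 17 measured nuclear and ADP-ribosylation effectors 15 were at least 1.5-fold higher in Usp18+/Δ (background 4.91%) and 16 in Usp18+/f (background 12.1%), with medians of 1.16 (0.90 to 1.34) and 1.48 (1.01 to 2.22). They included Rnf213, a giant ubiquitin ligase, at 308 against 94.5 CPM (1.70), Parp9 and its partner Dtx3l at 1.44 and 1.22, Sp100 of nuclear bodies at 1.43, and Parp14 at 1.16, and the lowest was Nmi, an interferon-induced adaptor, at 0.45.

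Genes that respond most to interferon-γ were higher by large ratios from low levels. These are the guanylate-binding proteins (Gbp) and immunity-related GTPases (Irg), which attack vacuoles of microbes. All 9 that reached 5 CPM in Usp18+/Δ and all 11 in Usp18+/f were at least 1.5-fold higher (background 4.91% and 12.1%), but 6 and 9 of these reached 5 CPM only through the members. The medians of the other 3 and 2 genes were 1.44 and 2.09. Gbp7, Igtp and Irgm1, held by other cells too, were at 1.44 (1.34 to 1.54), 2.10 (1.88 to 2.31) and 1.39 (1.25 to 1.53) in Usp18+/Δ. Gbp2 was at 43.5 against 3.52 CPM (3.63, 3.35 to 3.91), and Iigp1 at 24.6 against 0.187 CPM (7.04, 6.15 to 8.08). The chemokine gene Cxcl10 had 29 UMIs in 7 members of Usp18+/Δ, and 7 UMIs in Usp18+/f came from 1 cell.

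**Figure D2:**
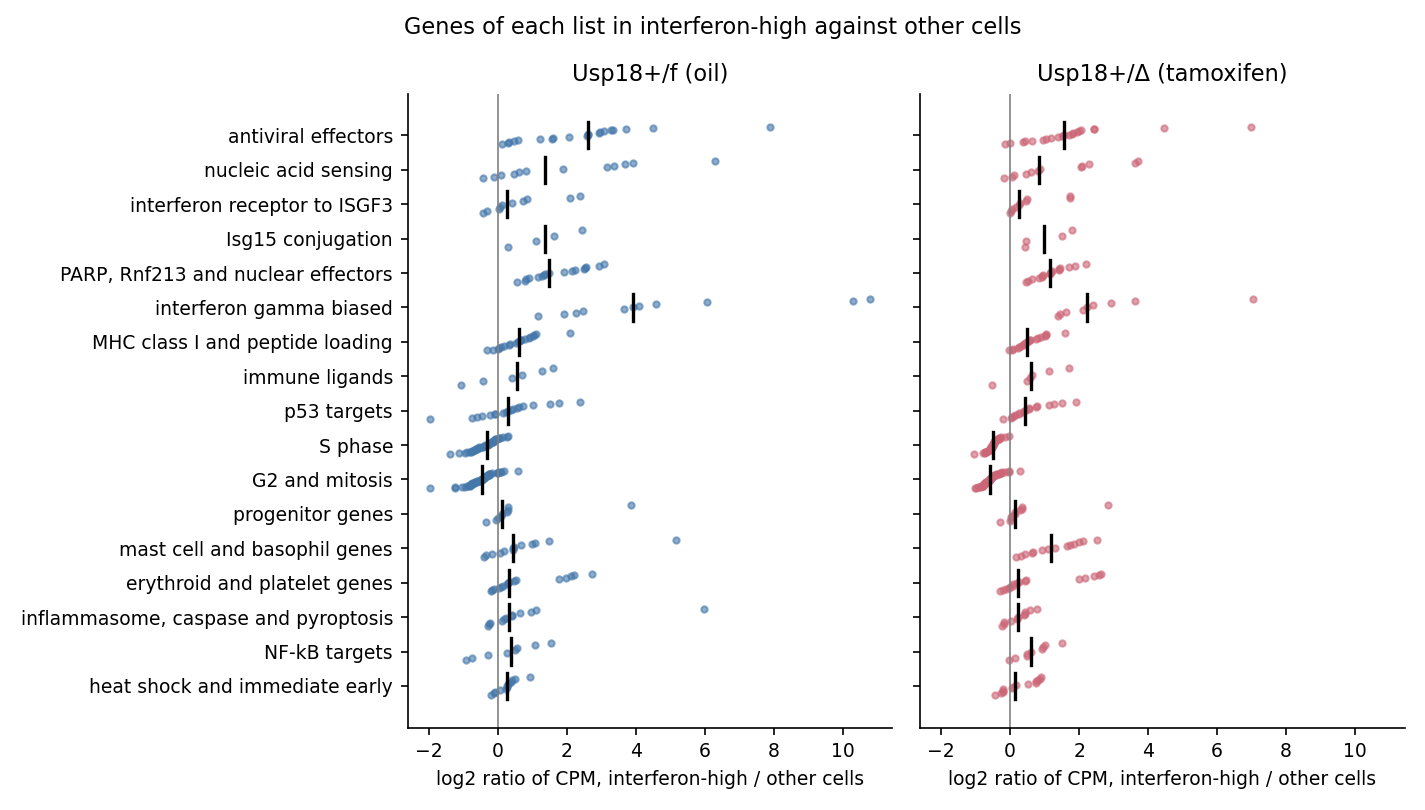
Log2 ratio of CPM in interferon-high over other cells for each gene of at least 5 CPM (points) in the lists named at the left, with the list median as a bar, for both libraries. Antiviral and interferon-γ-biased genes lie furthest to the right, and the S phase and G2 and mitosis genes to the left, with medians of -0.51 and -0.59 in Usp18+/Δ.

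MHC class I genes, which present peptides of the cell's own proteins to T cells, were higher in part. Of 20 measured class I and peptide-loading genes in the Usp18+/Δ-labelled library, 9 were at least 1.5-fold higher (background 4.91%) and 0 lower, and the intervals of 17 lay above 0 (background 19.1%). The median log2 ratio was 0.49 (0.27 to 0.70), and 0.46 depth-matched. In Usp18+/f it was 0.60 (-0.08 to 1.04), with 10 of 20 higher (background 12.1%), among them H2-T24, which passed 5 CPM there only through the members, and 9 intervals above 0 (background 5.29%). With at most 5% mitochondrial UMIs the Usp18+/f median was 0.058. B2m (chromosome 2, 122147686 to 122153083 on mm10), the light chain shared by all class I molecules, was at 815 against 408 CPM (1.0, 0.95 to 1.05) in Usp18+/Δ and at 581 against 333 CPM (0.80, 0.59 to 1.0) in Usp18+/f.

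The classical heavy chains H2-K1 and H2-D1 were at 0.37 (0.30 to 0.44) and 0.59 (0.52 to 0.65) in Usp18+/Δ, and at 0.53 and 0.68 in Usp18+/f. The non-classical H2-T23 and H2-T24 were at 1.05 and 1.6, and the heavy chain genes are near-identical copies whose reads may be split. Tap1, a subunit of the peptide transporter, was at 71.8 against 42.4 CPM (0.76), and Tapbp, its tether to the heavy chain, at 161 against 86.3 CPM (0.90). The immunoproteasome subunits were closer to other cells, with Psmb8 at 0.25, Psmb9 at 0.30 and Psmb10 at 0.08 (-0.04 to 0.19). Nlrc5, the transactivator of class I genes, was at 7.48 against 0.834 CPM, and its mean fell just under 5 CPM. Calr, an endoplasmic reticulum chaperone that is also followed on the surface of dying cells, was at -0.02 (-0.08 to 0.03) in Usp18+/Δ and -0.31 (-0.52 to -0.10) in Usp18+/f. No class II gene reached 5 CPM in either library.

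Among ligands that immune cells read, Cd274 (PD-L1) was at 29.3 against 8.99 CPM in Usp18+/Δ (1.71, 1.43 to 1.97) and at 22.9 against 7.50 CPM in Usp18+/f (1.61, 0.39 to 2.60). Tnfsf10 (TRAIL) was at 1.13 (0.88 to 1.37) in Usp18+/Δ, and Cd47, the signal that holds off phagocytes, at 1059 against 753 CPM (0.49, 0.45 to 0.53). Ulbp1, a ligand of the NKG2D receptor of natural killer cells, was the lowest of the 6 measured ligands in Usp18+/Δ at -0.52, and Icam1, an adhesion molecule, the lowest in Usp18+/f at -1.06. The genes coding for these ligands therefore did not all lie on 1 side of 0.

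Cell cycle genes were lower in members. In the Usp18+/Δ-labelled library, 28 of 52 G2 and mitosis genes and 10 of 42 S phase genes were at least 1.5-fold lower (background 3.94%), and 0 of either were that much higher. Their median log2 ratios were -0.59 (-0.74 to -0.42) and -0.51 (-0.67 to -0.34). Against depth-matched cells these medians were -0.30 and -0.33. The intervals of 48 and 40 genes lay below 0 (background 24.2%). In Usp18+/f the medians were -0.47 (-1.06 to 0.09) and -0.33 (-1.03 to 0.27), or -0.33 and -0.21 depth-matched, with 21 and 14 genes at least 1.5-fold lower (background 14%), and the intervals of 21 and 5 below 0 (background 4.16%).

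Mki67 (chromosome 7, 135689784 to 135716361), the proliferation marker Ki-67, was at 329 CPM in members and 516 CPM in other cells of Usp18+/Δ (-0.65, -0.72 to -0.58; -0.30 depth-matched) and at 426 against 548 CPM in Usp18+/f (-0.36, -0.60 to -0.13). Top2a, which untangles replicated DNA, was at 256 against 395 CPM and at 266 against 405 CPM, and Pcna, the sliding clamp of replication, at 75.7 against 99.1 CPM and 85.8 against 102 CPM. Of the 12 lowest ratios that held in both libraries 11 are reported here. Pbk, a mitotic kinase, was lowest at -1.08 (-1.38 to -0.80), followed by the linker histone gene Hist1h1b at -1.07 (-1.15 to -0.99) and Ccnb1, or cyclin B1, at -0.89 (-1.07 to -0.72). Arhgap19, Hist1h2bj, Bub1b, C330027C09Rik, Cdca2, Exo1, Hist1h2ap and Kif11 lay between -0.89 and -0.79. Within the lists the lowest ratios were those of Kif2c, a kinesin that takes microtubules apart, at -1.02, and Dscc1, which helps hold sister chromatids together, at -1.06. Rfc2, which loads the replication clamp, was the S phase gene nearest to other cells at -0.02. Psrc1 was the only one of the 52 G2 and mitosis genes with a ratio above 0 in Usp18+/Δ, at 0.28 (0.09 to 0.46).

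Phases were called on cells reduced at random to 3000 UMIs; shallower cells were left out, 10 and 54 members and 448 and 299 other cells. In the Usp18+/Δ-labelled library, 57.1% of 664 members were called G1 (53.2 to 60.9), against 25% of 6389 other cells (24 to 26.1). The share in G2M was 27.9% (24.5 to 31.4) against 49.5% (48.2 to 50.7), and the share in S 15.1% (12.4 to 18.0) against 25.5% (24.5 to 26.6). In Usp18+/f, 47.6% of 42 members were called G1 (32.0 to 63.6) against 21.3% of 6386 other cells (20.3 to 22.3). The intervals of members and other cells did not overlap for any phase in Usp18+/Δ, and overlapped for S in Usp18+/f. The part of free RNA in these calls was not tested.

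**Figure D3:**
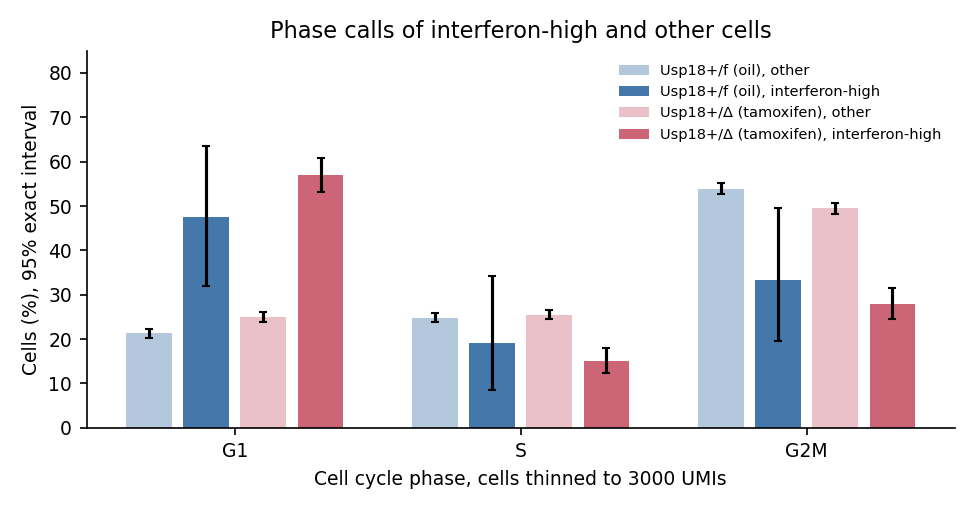
Percent of cells called G1, S or G2M after thinning to 3000 UMIs, for other and interferon-high cells of both libraries, with exact 95% intervals for counting error as bars. The G1 share of members, 57.1% in Usp18+/Δ and 47.6% in Usp18+/f, is above that of other cells, 25% and 21.3%.

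The sorted identity was checked next. Kit, the receptor used for sorting, was at 107 CPM in members and 102 CPM in other cells of Usp18+/Δ, a log2 ratio of 0.06 (-0.07 to 0.19), and at 77.2 against 96.9 CPM in Usp18+/f (-0.33, -0.93 to 0.21). Thinned, 27.6% of members and 26.2% of other cells of Usp18+/Δ held a Kit UMI, and 19.0% and 24.4% in Usp18+/f. Among lineage markers, no UMI of 6 T cell markers was found in any member, and other cells held 14 and 7. The 4 natural killer cell markers had 124 UMIs in 62 members of Usp18+/Δ, at 24.4 against 16.6 CPM (0.55, 0.27 to 0.82). In Usp18+/f these were at 5.72 against 7.05 CPM. In members of Usp18+/f and Usp18+/Δ, B and plasma cell markers had 1 and 2 UMIs, and neutrophil markers 0 and 1. Conventional dendritic cell markers had 0 and 5, and endothelial and stromal markers 0 in both. Plasmacytoid dendritic cell markers, Bst2 among them, were at 0.38 and 0.29. The 6 macrophage markers had 98 UMIs in 33 members of Usp18+/Δ (4.60%, against 2.48% of other cells), and 7 members there and 1 in Usp18+/f had at least 3 of them. That 1 cell held all 54 macrophage UMIs of Usp18+/f members. Without all such barcodes the antiviral medians were 1.56 and 2.61, and the class I medians 0.47 and 0.56, in Usp18+/Δ and Usp18+/f.

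The median of 11 measured progenitor genes in Usp18+/Δ was 0.13 (-0.07 to 0.34), with Cd34 at 16.9 against 16.7 CPM (0.02, -0.31 to 0.34), Runx1 at 0.13 (0.07 to 0.18) and Myb at 0.04 (-0.05 to 0.12), and Myc was lowest at -0.30. Depth-matched, Cd34 was at -0.35, Runx1 at 0.013 and Kit at -0.21, so the signs of Cd34 and Kit changed with this matching. In Usp18+/f members no Cd34 UMI was found, which allows up to 8.58 CPM by the limit of 3 UMIs, against 6.12 CPM in other cells, so no difference was detectable at this depth. Ly6a (Sca-1), a progenitor marker that interferon is known to induce, was the exception at 17.1 against 2.42 CPM in Usp18+/Δ (2.82, 2.42 to 3.22), with 4 UMIs in Usp18+/f members. It passed 5 CPM in both libraries only through the members, and without it the progenitor median in Usp18+/Δ was 0.095.

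The leukemia cells held RNA of many mast cell and basophil genes, and these were higher in members of the Usp18+/Δ-labelled library. Of 14 measured genes 11 were at least 1.5-fold higher and 0 lower there (background 4.91% and 3.94%), with a median log2 ratio of 1.19 (1.13 to 1.26). Against depth-matched cells the median was 0.56. In Usp18+/f the median was 0.45 (0.16 to 0.67), and -0.035 depth-matched. The summed list in Usp18+/f was at 2845 CPM at score 0 and highest under the threshold, at 6168 CPM from 2.5 to 5. It was at 3873 CPM from 5 to 10, 3369 CPM from 10 to 20 and 2611 CPM at 20 and above. In Usp18+/Δ the sums were 3231, 4020, 5115, 5414 and 5824 CPM in the same bands. Tpsab1 and Mcpt8 passed 5 CPM in Usp18+/Δ only through the members, and without them 9 of 12 were higher and the median was 1.02.

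Mcpt1, a mast cell protease, was at 244 against 66.9 CPM in Usp18+/Δ (1.86, and 1.05 depth-matched) and at 255 against 183 CPM in Usp18+/f (0.47, 0.16 to 0.77, but -0.30 depth-matched). Cpa3, carboxypeptidase A of mast cell granules, was at 414 against 170 CPM in Usp18+/Δ (1.29, 0.42 depth-matched), and at 112 against 99.3 CPM in Usp18+/f (0.17, -0.33 to 0.62, and -0.62 depth-matched). Against depth-matched cells both proteases were thus on opposite sides of 0 in the libraries, a difference that was not tested. Csf2rb, the chain shared by the IL-3, IL-5 and GM-CSF receptors, was at 1.10 (1.04 to 1.16) and 0.98 (0.73 to 1.22). Il1rl1, the receptor for IL-33, was at 870 against 550 CPM (0.66, 0.62 to 0.71) and 772 against 566 CPM (0.45, 0.27 to 0.62). Not all the genes were alike, since Ms4a2, a chain of the IgE receptor, was at 0.17 (0.11 to 0.22) in Usp18+/Δ. Genes of granulocytes and monocytes were mostly below 5 CPM, with 3 of 21 above it in Usp18+/Δ and 2 in Usp18+/f.

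Haemoglobin RNA formed another group among the largest ratios. Hbb-bt (chromosome 7, 103812524 to 103813996), a β-globin gene, was at 3380 CPM in members and 544 CPM in other cells of Usp18+/Δ (2.64, 2.61 to 2.66) and at 3841 against 583 CPM in Usp18+/f (2.72, 2.64 to 2.80). Hba-a2, Hba-a1 and Hbb-bs were at 2.44, 2.0 and 2.16 in Usp18+/Δ and 2.13, 1.77 and 1.98 in Usp18+/f. The single cell with most UMIs gave 20.9%, 22.3% and 25% of the Hbb-bt, Hbb-bs and Hba-a2 UMIs of Usp18+/f members. In Usp18+/Δ members these shares were 4.42%, 4.77% and 4.46%. Alas2, the first enzyme of heme synthesis in red cell precursors, was at 41.5 against 6.91 CPM (2.59, 2.34 to 2.83). Depth-matched, Hbb-bt and Alas2 were at 2.23 and 2.08, and without the haemoglobin-rich cells described below at 0.87 and 0.64. The paired globin genes are near-identical copies, so the split between them is uncertain.

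Other erythroid genes differed by less than 1.5-fold. In Usp18+/Δ the intervals of 9 of 16 measured erythroid and platelet genes, globins and Alas2 included, lay above 0 (background 19.1%). Those of 2 lay below 0 (background 24.2%). Gata1 and Klf1, transcription factors of red cell development, were at -0.20 (-0.32 to -0.08) and 0.09 (-0.01 to 0.20) in Usp18+/Δ, and Epor, the erythropoietin receptor, at -0.29 (-0.54 to -0.05). Of 16 measured erythroid and platelet genes 5 were at least 1.5-fold higher in each library (background 4.91% in Usp18+/Δ and 12.1% in Usp18+/f), the globins and Alas2, and the medians were 0.22 (0.07 to 0.37) and 0.32 (-0.11 to 0.74).

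Haemoglobin was uneven over cells. Cells with at least 1% of UMIs in the 4 globin genes were 207 of 718 members (28.8%, 25.5 to 32.3) against 8.15% of other cells in Usp18+/Δ (7.50 to 8.83), and 11 of 52 members (21.2%, 11.1 to 34.7) against 9.75% in Usp18+/f (9.05 to 10.5). Seen the other way, 27.5% of haemoglobin-rich cells of Usp18+/Δ were members and 7.68% of the rest, and 1.62% and 0.660% in Usp18+/f. Without the haemoglobin-rich cells the antiviral median in Usp18+/Δ was 1.37, the S phase median -0.32 and the mast cell median 1.0. In the cells of Usp18+/Δ that were not haemoglobin-rich, summed G2 and mitosis genes were at 7691 CPM in members against 9996 CPM in other cells. Summed p53 targets were at 1051 against 822 CPM. In Usp18+/f these sums were 9183 against 11262 CPM and 649 against 623 CPM. Other lists without haemoglobin-rich cells are given at the end, and the part of haemoglobin RNA as a cause was not tested.

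**Figure D4:**
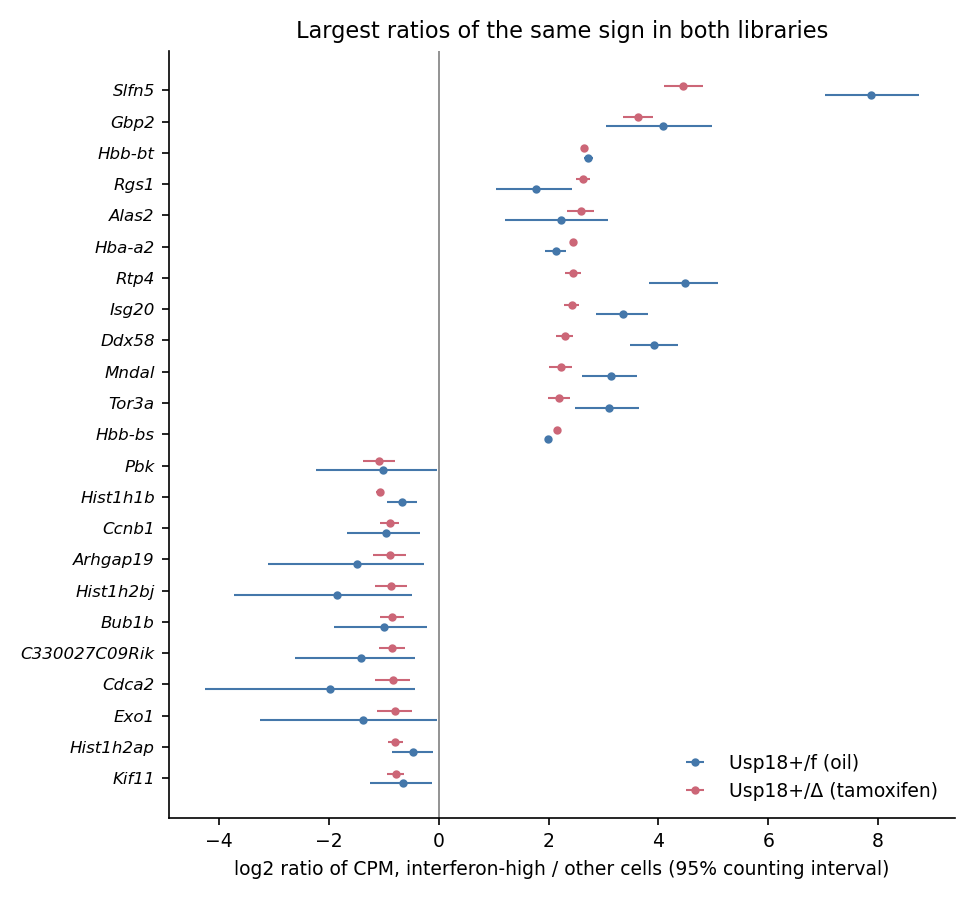
Log2 ratio of CPM in interferon-high over other cells for the 12 highest and 11 of the 12 lowest genes whose 95% counting intervals lie on the same side of 0 in both libraries, ordered by the ratio in Usp18+/Δ. Slfn5 is highest at 4.45 in Usp18+/Δ, 4 globin and heme genes stand among ISGs, 6 of the 12 highest genes reached the required mean of 20 CPM only through the members, and the lowest genes lie between -1.08 and -0.79.

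Of 6037 genes averaging 20 CPM or more in Usp18+/Δ, intervals lay above 0 in both libraries for 260 and below 0 in both for 236. Of the 12 highest, 6 (Slfn5, Gbp2, Alas2, Mndal, Tor3a and Ddx58) reached that average only through the members, so their place among the 12 is a description and supports nothing. Slfn5, Gbp2, Rtp4, Isg20, Ddx58 and Mndal, a DNA-binding protein of the Ifi200 family, are known ISGs, as is Tor3a of the torsin family (2.19, 1.98 to 2.39). Rgs1, a brake on chemokine receptor signaling, was at 159 against 25.6 CPM in Usp18+/Δ (2.63, 2.5 to 2.75), with 218 members holding it. The ratio was 2.02 depth-matched and 1.03 with at most 5% mitochondrial UMIs, while in Usp18+/f 1 cell gave 73.7% of the members' 19 UMIs.

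Targets of p53, the factor activated by DNA damage and other stress, were higher in part. In Usp18+/Δ 6 of 18 measured targets were at least 1.5-fold higher (background 4.91%) and 0 lower, with a median log2 ratio of 0.44 (0.26 to 0.60), and 0.41 depth-matched. Cdkn1a (chromosome 17, 29090976 to 29100727), the cycle inhibitor p21, was at 136 CPM in members against 56.3 CPM in other cells (1.27, 1.15 to 1.39; 1.18 depth-matched). Trp53inp1, a p53-induced stress protein, was at 43.9 against 11.8 CPM (1.90, 1.68 to 2.12), Btg2, an antiproliferative gene, at 104 against 36.7 CPM (1.5, 1.36 to 1.64), and Bbc3 (PUMA), which starts apoptosis, at 30.5 against 14.0 CPM (1.12, 0.86 to 1.37). Mdm2, the ligase that feeds back on p53, was at 0.25 (0.05 to 0.44) and Bax at 0.10 (0.02 to 0.18). Ddb2, which recognises ultraviolet damage, was the lowest target at -0.21.

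In Usp18+/f the p53 median was 0.28 (-0.77 to 1.29) with 6 genes at least 1.5-fold higher and 3 lower of 19 (background 12.1% and 14%). Without Plk3 and Trp53inp1, which passed 5 CPM only through the members, 4 of 17 were higher and the median was 0.23. The summed level of the listed targets was 741 CPM in members against 636 CPM in other cells, a log2 ratio of 0.22 (0.04 to 0.40). Cdkn1a was at 25.7 against 21.9 CPM there on 9 UMIs (0.23, -0.90 to 1.16), and Btg2 at 103 against 30.3 CPM (1.76, 1.25 to 2.24). Among other cells Cdkn1a was itself higher in the Usp18+/Δ-labelled library than in Usp18+/f, by 1.36 on the log2 scale.

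Genes of inflammasomes, caspases and pyroptosis, the lytic cell death that the study is concerned with, mostly differed by less than 1.5-fold. Of 11 measured genes in Usp18+/Δ the intervals of 6 lay above 0 (background 19.1%) and 2 were at least 1.5-fold higher (background 4.91%), Mlkl, the executor of necroptosis, at 0.78 (0.48 to 1.06) and Naip5 at 0.59 (0.18 to 0.98), and 0 were lower. In Usp18+/f 4 of 12 were at least 1.5-fold higher and 0 lower (background 12.1% and 14%). The median was 0.23 (0.02 to 0.44) in Usp18+/Δ and 0.32 (-0.43 to 1.13) in Usp18+/f. Without Il18, which passed 5 CPM in Usp18+/f only through the members, 3 of 11 were higher there and the median was 0.23. The pore-forming gasdermins Gsdmd and Gsdme were at 0.23 (0.02 to 0.44) and 0.39 (0.11 to 0.66), Casp8 was at 0.43 (0.30 to 0.55), and the necroptosis kinase Ripk3 was lowest at -0.24. Casp1, Il1b and Il18 were under 5 CPM in Usp18+/Δ, and Nlrp3 had no UMI in either class.

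NF-κB targets had a median of 0.61 (0.42 to 0.91) over 9 measured genes of Usp18+/Δ. Relb, Traf1 and Nfkbie passed 5 CPM only through the members, and without them 2 of 6 were at least 1.5-fold higher (background 4.91%) and the median was 0.49. The inhibitors Nfkbia and Tnfaip3 were at 0.61 (0.42 to 0.80) and 1.02 (0.68 to 1.34), and 0.40 and 0.64 depth-matched. In Usp18+/f the list median was 0.38 (-1.31 to 1.22), with 2 higher and 2 lower of 8 (background 12.1% and 14%). Nfkbie and Traf1 passed 5 CPM there only through the members. Over the 6 genes that other cells also held at 5 CPM the median was -0.016, and 0 were at least 1.5-fold higher. Heat shock and immediate early genes had medians of 0.13 (-0.04 to 0.35) in Usp18+/Δ (0.085 without Egr1, which passed 5 CPM only through the members) and 0.27 (-0.33 to 0.80) in Usp18+/f, from Hspa1a, an inducible chaperone, at -0.44 to Zfp36, which destabilises cytokine mRNA, at 0.91 in Usp18+/Δ.

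The cells were then divided by score to see whether these groups followed it on either side of the threshold. In the Usp18+/Δ-labelled library the summed antiviral level was 1232 CPM at score 0, 1839 CPM between 2.5 and 5, 2439 CPM between 5 and 10, 3177 CPM between 10 and 20, and 5106 CPM at 20 and above. The summed class I level was 2873, 3264, 3668, 4031 and 5369 CPM in the same bands. Both were thus already higher in cells under the threshold, in which 142 cells of Usp18+/f and 842 of Usp18+/Δ scored from 2.5 to 5. In Usp18+/f the antiviral level was 949 CPM at score 0 and 4715 CPM at 20 and above, on 6 cells.

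Summed erythroid levels, mostly globin, were 5952 CPM at score 0 and 29137 CPM at 20 and above in Usp18+/Δ. In Usp18+/f they were highest between 5 and 10, at 23200 CPM, and 15288 CPM at 20 and above. G2 and mitosis genes were at 9773 CPM at score 0, 10324 CPM above 0 and under 2.5, 8471 CPM from 2.5 to 5, 6963 CPM from 5 to 10, 7369 CPM from 10 to 20 and 6671 CPM at 20 and above in Usp18+/Δ. In the 6 cells of Usp18+/f at 20 and above, S phase genes were higher than at score 0 by 0.21 (0.02 to 0.39) on the log2 scale, and G2 and mitosis genes at -0.11 (-0.23 to 0.01). Targets of p53 were at -0.86 (-1.59 to -0.22) in those 6 cells, on 19 UMIs. In Usp18+/f they were at 0.30 from 5 to 10 and 0.57 from 10 to 20, and in Usp18+/Δ at 0.54 at 20 and above. Inflammasome and pyroptosis genes stayed between 1131 and 1175 CPM over all bands of Usp18+/Δ.

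**Figure D5:**
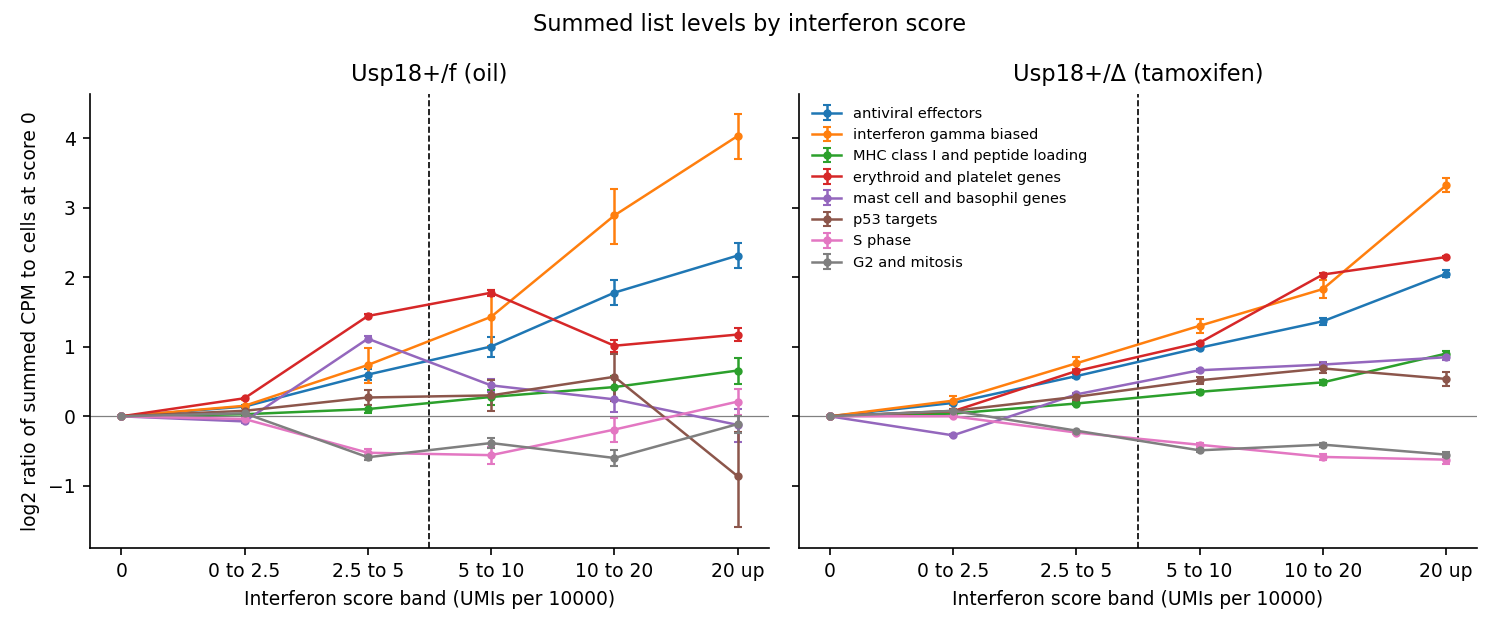
Log2 ratio of the summed CPM of a list in each band of interferon score over cells of the same library at score 0, with 95% counting intervals; the dashed line is the membership threshold. In Usp18+/Δ antiviral, interferon-γ-biased and erythroid levels are higher in each higher band and the S phase and G2 and mitosis levels lower beyond a score of 2.5, while bands of Usp18+/f above 10 hold 11 and 6 cells.

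Between libraries, ISG levels were compared within each class. Among other cells the antiviral genes had a median log2 ratio of 0.82 for Usp18+/Δ over Usp18+/f. Among members it was 0.14. The same minimum score applied to members of both libraries, and its part in these values was not tested. The members' antiviral genes, per cell of 10000 UMIs, had medians of 28.2 and 19.5 UMIs against 13.0 and 9.34 in other cells of Usp18+/Δ and Usp18+/f, and the ranges of members and other cells overlapped in both.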

How the data were processed

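Single-cell 3′ RNA libraries of 2 groups, 1 pool each, were analysed from gene by barcode matrices of UMI counts, raw and not normalized, which the authors deposited. The submitters' processing notes name Cell Ranger, Seurat and mm10. The cell rule, the 5 rule genes, the members and all gene lists were chosen with earlier results of these data known. A barcode was kept if 500 or more genes were detected and mitochondrial UMIs did not exceed 10%. UMIs were summed over members and over other cells within a library and scaled to CPM. Ratios carry exact conditional 95% intervals, and shares exact binomial ones. These cover counting error only. List medians use genes averaging 5 CPM or more over both classes, and a list's interval is the median of its genes' bounds. With 1 library per group no test was run. Genes named by rule were the 12 highest and 12 lowest log2 ratios in Usp18+/Δ among genes of at least 20 CPM whose intervals lay on the same side of 0 in both libraries, with the highest, lowest and most abundant gene of each list and a few central ones; the other list genes in the text were chosen for their roles after their values were seen. Scrublet's automatic call marked 0.189% and 0.027% of cells, too few to use, so doublets were kept. Python 3.11.15, numpy 2.4.6, scipy 1.17.1, pandas 2.3.3, scanpy 1.11.5 and matplotlib 3.10.9 were used. Some genes are not reported here. The calculation was tested on simulated data. Alternatives changed the threshold, cell and gene filters, depth, scaling and doublets.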

Additional observations from a re-analysis of the deposited data

Results flagged for a closer look

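Cma1, a mast cell chymase, differed in opposite directions between members and other cells of the libraries. In Usp18+/f it was at 369 CPM in members against 463 CPM in other cells, a log2 ratio of -0.33 (-0.59 to -0.08), and in Usp18+/Δ at 957 against 501 CPM, a ratio of 0.93 (0.89 to 0.98). Against depth-matched cells the ratios were -0.97 and 0.18. The difference between the libraries was not tested, since each was 1 pool.

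Barcodes left out by the gene and mitochondrial filters also held rule-gene RNA. Of 427 such barcodes in Usp18+/Δ, 33 scored at or above the threshold (7.73%, 5.38 to 10.7), and of 395 in Usp18+/f, 4 did (1.01%). They belong to no class of the comparisons.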

How the results depend on the processing

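Medians are log2 ratios of members over other cells, antiviral genes being those the rule did not use. At a threshold of 3 the shares of members were 2.0% in Usp18+/f and 17.6% in Usp18+/Δ (log2 ratio 3.16), the antiviral median in Usp18+/Δ was 1.35 and the mast cell medians were 1.05 and 0.93. At 10 the shares were 0.247% and 4.08%, the antiviral medians 3.50 and 1.99, and the mast cell median in Usp18+/f turned to -0.11. With at least 3 rule-gene UMIs required, the shares were 0.537% and 8.75% and the mast cell median in Usp18+/Δ was 0.79. With cells thinned to 3000 UMIs the shares were 1.04% and 11.3%, the antiviral medians 1.45 and 1.31, and the mast cell median in Usp18+/Δ 0.81. With at most 5% mitochondrial UMIs the shares were 1.23% and 18.5%, the Usp18+/f medians 1.0 (antiviral) and -1.21 (G2 and mitosis), and the mast cell median in Usp18+/Δ 1.01. Against depth-matched cells the mast cell medians were -0.035 in Usp18+/f, reversed, and 0.56 in Usp18+/Δ, where S phase and G2 and mitosis were at -0.33 and -0.30. In Usp18+/Δ a minimum of 20 CPM gave a mast cell median of 1.02, and no minimum gave 1.10, with 1.95 for antiviral genes. Without haemoglobin-rich cells, an alternative chosen after seeing the data, the mast cell median was 0.13 in Usp18+/f, and Usp18+/Δ had medians of 1.37 (antiviral), -0.32 (S phase) and 1.0 (mast cell) and a share of 7.68%. The cause of these shifts was not tested. The medians of the antiviral, class I, p53, S phase, G2 and mitosis and mast cell lists, the only lists run, kept their direction under all 13 alternatives except that of mast cell genes in Usp18+/f, which kept it in 11. The class I median of Usp18+/f was 0.058 with at most 5% mitochondrial UMIs, S phase was at -0.029 at a threshold of 10, and p53 was at 0.11 without haemoglobin-rich cells. Of 11 alternatives, Kit in Usp18+/Δ kept its direction in 9 and Cd34 in 8. No paired analysis was possible because there was a single pooled library on either side. Values of Usp18+/f rest on 52 members.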
